A study of Mus musculus with 4 samples.

Results

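Oxidative phosphorylation genes were described in single cells of the Tbx1 lineage of mouse embryos that carried 1 or 2 conditional alleles of Kmt2d, which encodes a histone H3 lysine 4 methyltransferase. The members were chosen by their symbols alone (those beginning with Nduf, Uqcr, Cox4 to Cox8, Atp5, mt-Nd, mt-Co, mt-Atp or mt-Cytb, and Sdha to Sdhd). This gave 107 of the 32285 genes in the count tables, of which 94 were nuclear and 13 were encoded in mitochondrial DNA. Of the nuclear members, 37 were subunits of complex I, 4 of complex II, 8 of complex III, 20 of complex IV and 17 of complex V, and 8 were Ndufaf assembly factors of complex I. The mitochondrial members encode 7 subunits of complex I, 1 of complex III, 3 of complex IV and 2 of complex V. All groups carried Tbx1Cre/+, a Cre knocked into Tbx1, so that Tbx1 was heterozygous throughout, and a Cre-dependent GFP F/+ reporter. The controls (cHet) were Kmt2d F/+ and the mutants (cKO) were Kmt2d F/F at E9.5. The labels of Rep1 gave the strain as outbred SwissWebster and those of Rep2 gave none, while the methods describe a mixed C57BL/6 and Swiss Webster background. Pharyngeal tissue with the heart was dissociated and live EGFP+ cells were sorted, from pools of 4 embryos per library in Rep1 and 3 embryos in Rep2. There were 2 libraries per genotype, and the replicates differed in kit (Next GEM 3′ v3.1 in Rep1, GEM-X 3′ v4.1 in Rep2).

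In oxidative phosphorylation, electrons from NADH and succinate pass from complexes I and II through complex III to oxygen at complex IV, and the proton gradient built on the way drives ATP synthesis at complex V. Complex II is encoded wholly in the nucleus, whereas the other complexes combine nuclear subunits with subunits made inside the mitochondrion. Heart muscle is known for a high content of mitochondria and for tissue isoforms of several complex IV subunits.

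Many nuclear subunits are known targets of NRF1, a transcription factor whose palindromic site of 10 bases is set in capitals in the sequences shown here. Promoters (250 bases before to 50 bases after the gene start, RefSeq, GRCm38.p6) were matched by symbol for 75 of the 94 nuclear members. Of these, 7 held the NRF1 letters (9.33%), against 290 of 27025 promoters of all genes (1.07%). The letters CCGGAAGT of ETS factors, read on both strands, were in 5 of the 75 (6.67%, against 4.31% of all promoters). AAGATGGC, the core read by YY1 and also searched on both strands, was in 10 (13.3%, against 3.19%). None of these motifs overlaps another in its letters, and a match is a description of the sequence, not a bound site. The 5 NRF1 matches that lie before the gene start are shown because they let the shared element be seen in genes of complexes I, IV and V and of an assembly factor. Each is read 5′ to 3′ on the strand of its gene, with the motif in capitals.
Ndufa11: tgcactgcGCGCATGCGCgcacgcct
Ndufaf4: agatgtctGCGCATGCGCctgtgcgg
Cox6a1: ggaacgggGCGCATGCGCgctctcgc
Atp5g2: ctccggccGCGCATGCGCagagcctt
Atp5k: tcactgcgGCGCATGCGCctttctgg
These windows lie at chr17:56717694-56717719 (plus strand), chr4:24897962-24897987 (plus strand), chr5:115349103-115349128 (minus strand), chr15:102671072-102671097 (minus strand) and chr5:108434432-108434457 (minus strand). The motif began 60, 113, 162, 42 and 50 bases before the RefSeq gene start, in the same order.

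Kmt2d itself was counted at 17.4 and 15.2 CPM (UMIs of a gene per 1000000 UMIs of the same cells) in the cHet and cKO libraries of Rep1, and at 23.9 and 21.0 CPM in Rep2. UMIs are read from the 3′ end of a transcript and the position of the deleted part is not given in the sources used here, so these values were not taken as a check of the genotypes. The libraries held between 179454146 and 234726019 UMIs, and 5869 (cHet) and 6291 (cKO) cells of Rep1 and 9350 and 11938 cells of Rep2 were kept. Before this, the barcodes in the count tables numbered 37093 in cHet and 9307 in cKO of Rep1, and 13192 and 16775 in Rep2. In cHet Rep1 this was more than the cells that the paper reports, and in the other libraries it was equal. The barcodes of Rep1 were thus not selected alike between genotypes, and the part of this was not tested. The kept cells of the 2 libraries of Rep1 shared 12 barcodes and those of Rep2 shared 41, while the replicates shared 0. The cells were clustered without the members, and 20 of 21 clusters were named for 9 types by their markers. Each name below means that the cells were like that type. All markers of a type were detected in its cells in each library, and cluster 20 (297 cells) stayed unnamed. The name of the only cluster of the anterior second heart field (aSHF) was the least certain, because 3 markers each of aSHF, of the posterior second heart field (pSHF) and of mesenchyme passed in it. Isl1, Fgf10 and Nkx2-5 did not pass in it, while 5 aSHF markers passed in each of the pSHF and cardiac muscle clusters. The summed aSHF markers were at 567 and 514 CPM (cHet and cKO of Rep1) and 842 and 865 CPM (Rep2) in this cluster. In cardiac muscle they were higher, at 786, 568, 1402 and 1501 CPM in the same order. At the finer resolution of 1.2, a cluster of 611 cells that shared leading genes with the aSHF cluster (Epha3, Alx1, Dlk1 and Ppp2r2b) was named for multilineage progenitors (MLP). The 4 macrophage markers summed to at most 5.23 CPM in any type and library. Where 4 values stand together with no library named, they are cHet then cKO of Rep1, followed by cHet then cKO of Rep2.

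The nuclear members together were most abundant in cardiac muscle in 4 of 4 libraries. Their summed level there was 35650 CPM in cHet and 41079 CPM in cKO of Rep1, against 16886 and 18693 CPM in Rep2. In mesenchyme, the largest type, the sum was 25521, 25480, 11171 and 11522 CPM in the same order. Cardiac muscle was thus 1.54 ± 0.105 times mesenchyme (SD, n = 4 libraries). The 13 mitochondrial members were also highest in cardiac muscle in each library (29072, 27695, 14048 and 16517 CPM). In cHet Rep2, however, endothelium was almost level with it (14016 CPM). The mitochondrial ratio of cardiac muscle to mesenchyme was smaller than the nuclear ratio, at 1.22 ± 0.121 (SD, n = 4). At the other end, MLP had the lowest nuclear sum in 4 of 4 libraries, 0.970 ± 0.00337 times mesenchyme (SD, n = 4). Over other settings its mean ratio reached 0.993, while that of neuronal cells did not pass 0.990, so this rank depended on the processing. The lowest mitochondrial sum was in neuronal cells in 3 of 4 libraries and in epithelium in cKO Rep1. In the other named types the nuclear sums lay close together, with mean ratios to mesenchyme between 0.970 and 1.08. The unnamed cluster 20 had nuclear sums of 29732, 30231, 14686 and 14271 CPM, between cardiac muscle and the other types in each library. Types were compared by description only, since they are clusters of these same cells, and CPM is a share of a cell's UMIs, so more RNA of a member and less RNA of other genes cannot be told apart.

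**Figure D1:**
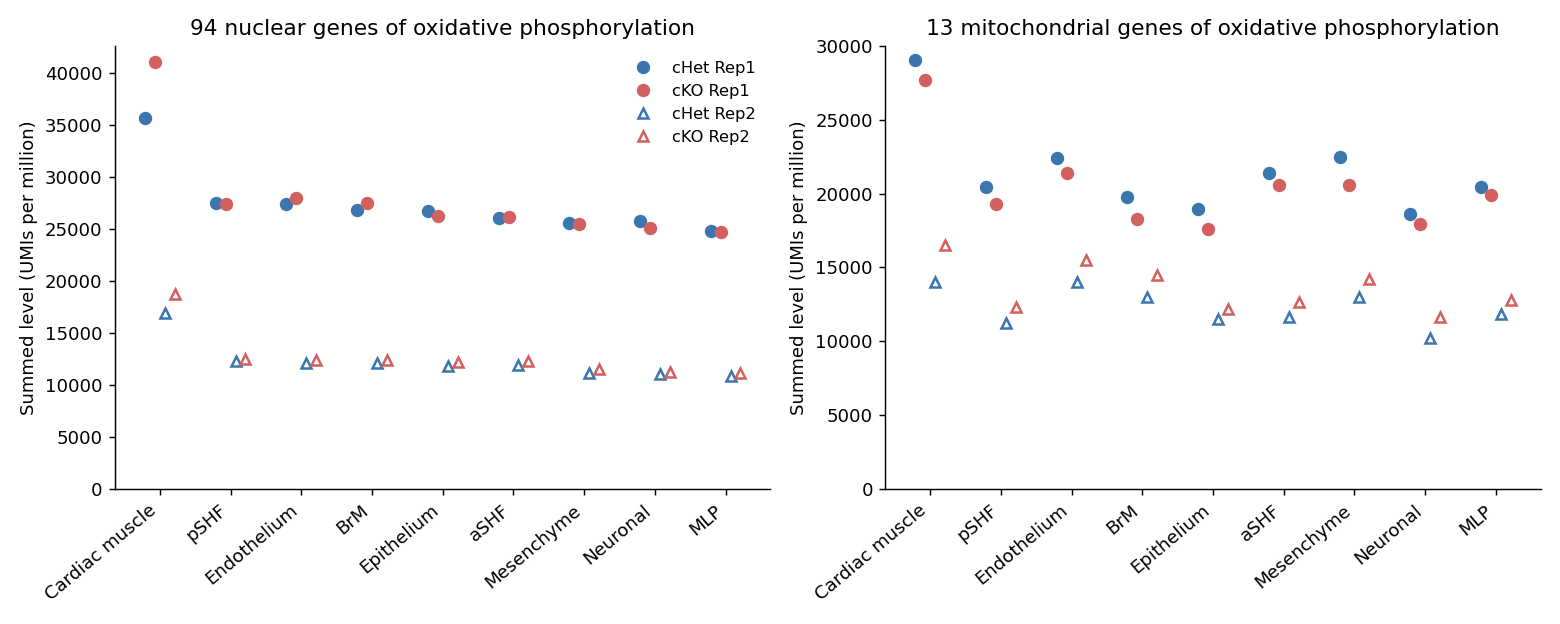
Summed level of the 94 nuclear members (left) and of the 13 mitochondrial members (right) in CPM, for each cell type, with 1 point per library. Cardiac muscle holds the highest point of each library in both panels, and the Rep1 libraries lie above those of Rep2. In the right panel endothelium is almost level with cardiac muscle in cHet Rep2 (14016 and 14048 CPM).

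Cells of pSHF, the progenitors of the inflow side of the heart, had a nuclear sum of 27471 and 27379 CPM in Rep1 and 12244 and 12531 CPM in Rep2. This was 1.08 ± 0.0101 times mesenchyme (SD, n = 4), above it in each library. Their mitochondrial sum went the other way (20434, 19308, 11228 and 12343 CPM), at 0.895 ± 0.0357 times mesenchyme. Of the 92 nuclear members tested, 52 were higher in pSHF than in mesenchyme in all 4 libraries, against 22.7% of all genes, and 12 were lower, against 27% of all genes. Of the 13 mitochondrial members, 1 was higher (mt-Nd6, a complex I subunit) and 9 were lower in all 4 libraries. Branchiomeric muscle progenitors (BrM), which give rise to muscles of the head, had nuclear sums of 26836, 27516, 12080 and 12392 CPM. Their nuclear ratio to mesenchyme was 1.07 ± 0.0139 (SD, n = 4), with 52 of 92 members higher in all 4 libraries (25% of all genes) and 10 lower (27.9% of all genes). The mitochondrial sum of BrM was below that of mesenchyme in Rep1, by ratios of 0.879 (cHet) and 0.889 (cKO), and level with it in Rep2, by ratios of 1.00 and 1.02. Nuclear and mitochondrial members therefore did not rank these types alike.

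The 8 clusters that made up mesenchyme differed less from each other in nuclear level than cardiac muscle differed from them. Their nuclear sums ran from 24583 to 26464 CPM in cHet Rep1, from 24291 to 26992 CPM in cKO Rep1, from 10781 to 12196 CPM in cHet Rep2 and from 10992 to 12170 CPM in cKO Rep2. Each cardiac muscle value lay above the range of its library. The mitochondrial sums of the same clusters ran from 20349 to 24623 CPM, from 18249 to 23878 CPM, from 11896 to 13823 CPM and from 13061 to 15222 CPM in the same order. Cardiac muscle lay above these ranges too, but in cKO Rep1 and in both libraries of Rep2 by less than the clusters differed from each other. Dividing the mitochondrial by the nuclear sum gave 0.880, 0.807, 1.16 and 1.23 in mesenchyme, again as cHet and cKO of Rep1 and then of Rep2. The same quotient was 0.744, 0.705, 0.917 and 0.985 in pSHF and 0.815, 0.674, 0.832 and 0.884 in cardiac muscle. Both types lay below mesenchyme in each library, and so did epithelium, neuronal cells, aSHF and BrM. MLP did too, but in cKO Rep1 it was almost level with mesenchyme (0.8062 against 0.8068). Endothelium lay below mesenchyme except in cKO Rep2 (1.25 against 1.23).

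The excess in cardiac muscle extended over the summed structural subunits of all 5 complexes. The ratio to mesenchyme of the summed nuclear subunits was 1.41 ± 0.0945 for complex I, 1.53 ± 0.163 for complex II and 1.71 ± 0.131 for complex III. It was 1.61 ± 0.115 for complex IV and 1.58 ± 0.116 for complex V, against 1.05 ± 0.0809 for the sum of the 8 Ndufaf assembly factors (SD, n = 4 libraries each). The assembly factors were not alike in this. Ndufaf2, the most abundant of them, had its lowest mean in cardiac muscle (63.1 CPM) and its highest in mesenchyme (109 CPM). Ndufaf6 was highest in BrM, and the other 6 had their highest mean in cardiac muscle, with ratios of highest to lowest type mean from 1.49 (Ndufaf1) to 2.23 (Ndufaf3). Among the nuclear members, 83 of 92 were higher in cardiac muscle than in mesenchyme in all 4 libraries, where 19.3% of all genes were, and 1 was lower, where 37.7% of all genes were. At least 25% higher than in all other cells in each library were 58 nuclear and 3 mitochondrial members, against 11% of all genes. The only member at least 20% lower was Ndufaf2, an assembly factor, against 26.2% of all genes. No member was 25% higher in pSHF or BrM by this rule, against 5.2% and 4.97% of all genes. Of the 92 nuclear members, 73 were above every other type in every library, and 7 of the 13 mitochondrial members were (mt-Nd2, mt-Co1, mt-Co3, mt-Nd4l, mt-Nd4, mt-Nd5 and mt-Cytb), against 6.67% of all genes.

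Core subunits showed how unequal this excess was. Uqcrfs1, the iron-sulfur protein of complex III, was counted in cardiac muscle at 250.1 and 304.7 CPM in Rep1 and 268.4 and 286.9 CPM in Rep2. In mesenchyme it was at 139.0, 137.7, 158.8 and 148.0 CPM, so the types did not overlap. Cox5a, a nuclear subunit of complex IV, was at 990.3, 1121, 872.3 and 900.7 CPM in cardiac muscle and at 596.8, 586.3, 494.0 and 482.2 CPM in mesenchyme. Atp5a1 and Atp5b encode the alpha and beta subunits of the catalytic head of ATP synthase. Atp5b was at 645.0, 722.3, 658.4 and 686.3 CPM in cardiac muscle and at 481.4, 502.8, 452.0 and 433.6 CPM in mesenchyme. Atp5a1 was at 595.1, 618.8, 542.7 and 546.4 CPM, against 409.6, 406.0, 384.8 and 365.7 CPM. All 3 genes were higher in cardiac muscle in each library. Ndufs1, the largest subunit of complex I, was at 83.9, 79.9, 107.8 and 103.8 CPM in cardiac muscle and at 48.2, 47.9, 75.8 and 74.1 CPM in mesenchyme. Ndufv1, which binds NADH in the same complex, was not higher in all libraries, with 64.7, 85.6, 69.1 and 65.6 CPM in cardiac muscle against 73.1, 75.4, 53.0 and 46.8 CPM in mesenchyme. The cHet library of Rep1 was the lower of the pair there and the other three were the higher. Of the complex II subunits that oxidize succinate, Sdhb was at 200.3, 291.6, 180.7 and 205.7 CPM in cardiac muscle against 160.5, 157.7, 117.6 and 121.8 CPM. Sdha was at 95.5, 105.3, 113.2 and 112.3 CPM against 82.7, 83.3, 93.3 and 89.6 CPM. Uqcrc1, a core protein of complex III, was at 105.1, 109.1, 87.5 and 88.7 CPM in cardiac muscle against 98.6, 103.0, 66.5 and 63.5 CPM in mesenchyme. It was among the members that varied least between types, with a ratio of highest to lowest type mean of 1.28.

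The largest differences between types were in tissue isoforms, which stand in for a more general subunit. Cox6a2 (chr7:128205435-128206387, minus strand, GRCm38), the heart and skeletal muscle form of a complex IV subunit, was counted with 397 UMIs (140.5 CPM) and 185 UMIs (174.0 CPM) in cardiac muscle of the cHet and cKO libraries of Rep1. In Rep2 it was counted with 306 UMIs (55.3 CPM) and 297 UMIs (60.3 CPM). All other cells together held 7, 2, 8 and 5 UMIs, so the gene was almost wholly a cardiac muscle count in each library. Cox6a2 overlaps Itgad on the opposite strand. Its general partner Cox6a1 was present in all types, and in cardiac muscle Cox6a2 made up 33.1% of the UMIs of the pair in cHet Rep1 (95% Clopper-Pearson interval 30.4 to 35.8%) and 39.3% in cKO Rep1 (34.8 to 43.9%). The share was 27.7% (25.1 to 30.4%) and 24.9% (22.5 to 27.5%) in the cHet and cKO libraries of Rep2. These intervals cover counting error only. In mesenchyme the share did not pass 0.0236%.

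Cox7a1, the heart form of another complex IV subunit (chr7:30184144-30186078, plus strand), was counted at 54.8, 80.9, 8.14 and 10.6 CPM in cardiac muscle. In other cells it was at 1.21, 0.808, 0.277 and 0.393 CPM, so cardiac muscle stood apart in both replicates although the levels of the replicates differed. Its share of the UMIs of Cox7a1 and Cox7a2 in cardiac muscle was 6.0% and 7.29% in Rep1 and 3.73% and 4.46% in Rep2, so the general form Cox7a2 remained the main one. Cox4i2, a form of subunit 4 known from lung and from low oxygen, was not confined to muscle (chr2:152754173-152765037, plus strand). It was at 38.9, 39.5, 22.1 and 27.6 CPM in cardiac muscle, where it made up 3.78%, 3.24%, 3.94% and 4.42% of the UMIs of Cox4i2 and Cox4i1. In the cells named aSHF, whose own markers left the name uncertain, it was at 17.3, 19.0, 8.78 and 9.78 CPM. Within epithelium it was at 35.1, 27.4, 17.1 and 22.0 CPM in cluster 9 and at 3.11, 3.76, 3.40 and 3.13 CPM in cluster 15, which shows that the epithelial clusters were not alike. Endothelium was lowest, at 2.29, 1.05, 0.991 and 0.806 CPM. The testis-enriched forms stayed low, with Cox6b2 at 12.4, 17.9, 5.79 and 6.09 CPM in cardiac muscle and at 13.9, 14.3, 5.59 and 4.69 CPM in mesenchyme. The testis form Cox8c and the muscle form Cox8b were the rarest members, with 9 and 12 UMIs in all kept cells, and were not tested. The general forms Cox4i1, Cox6a1, Cox6b1, Cox7a2, Cox7b, Cox8a and Ndufa4, and Ndufc2 of complex I, were all higher in cardiac muscle than in mesenchyme in each library. So was Cox7a2l, a paralog of Cox7a2, but its highest mean was in MLP (228.4 CPM, against 227.3 CPM in cardiac muscle). Cox8a reached 1508, 1885, 313.0 and 380.9 CPM in cardiac muscle, against 809.5, 790.0, 178.3 and 199.0 CPM in mesenchyme.

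**Figure D2:**
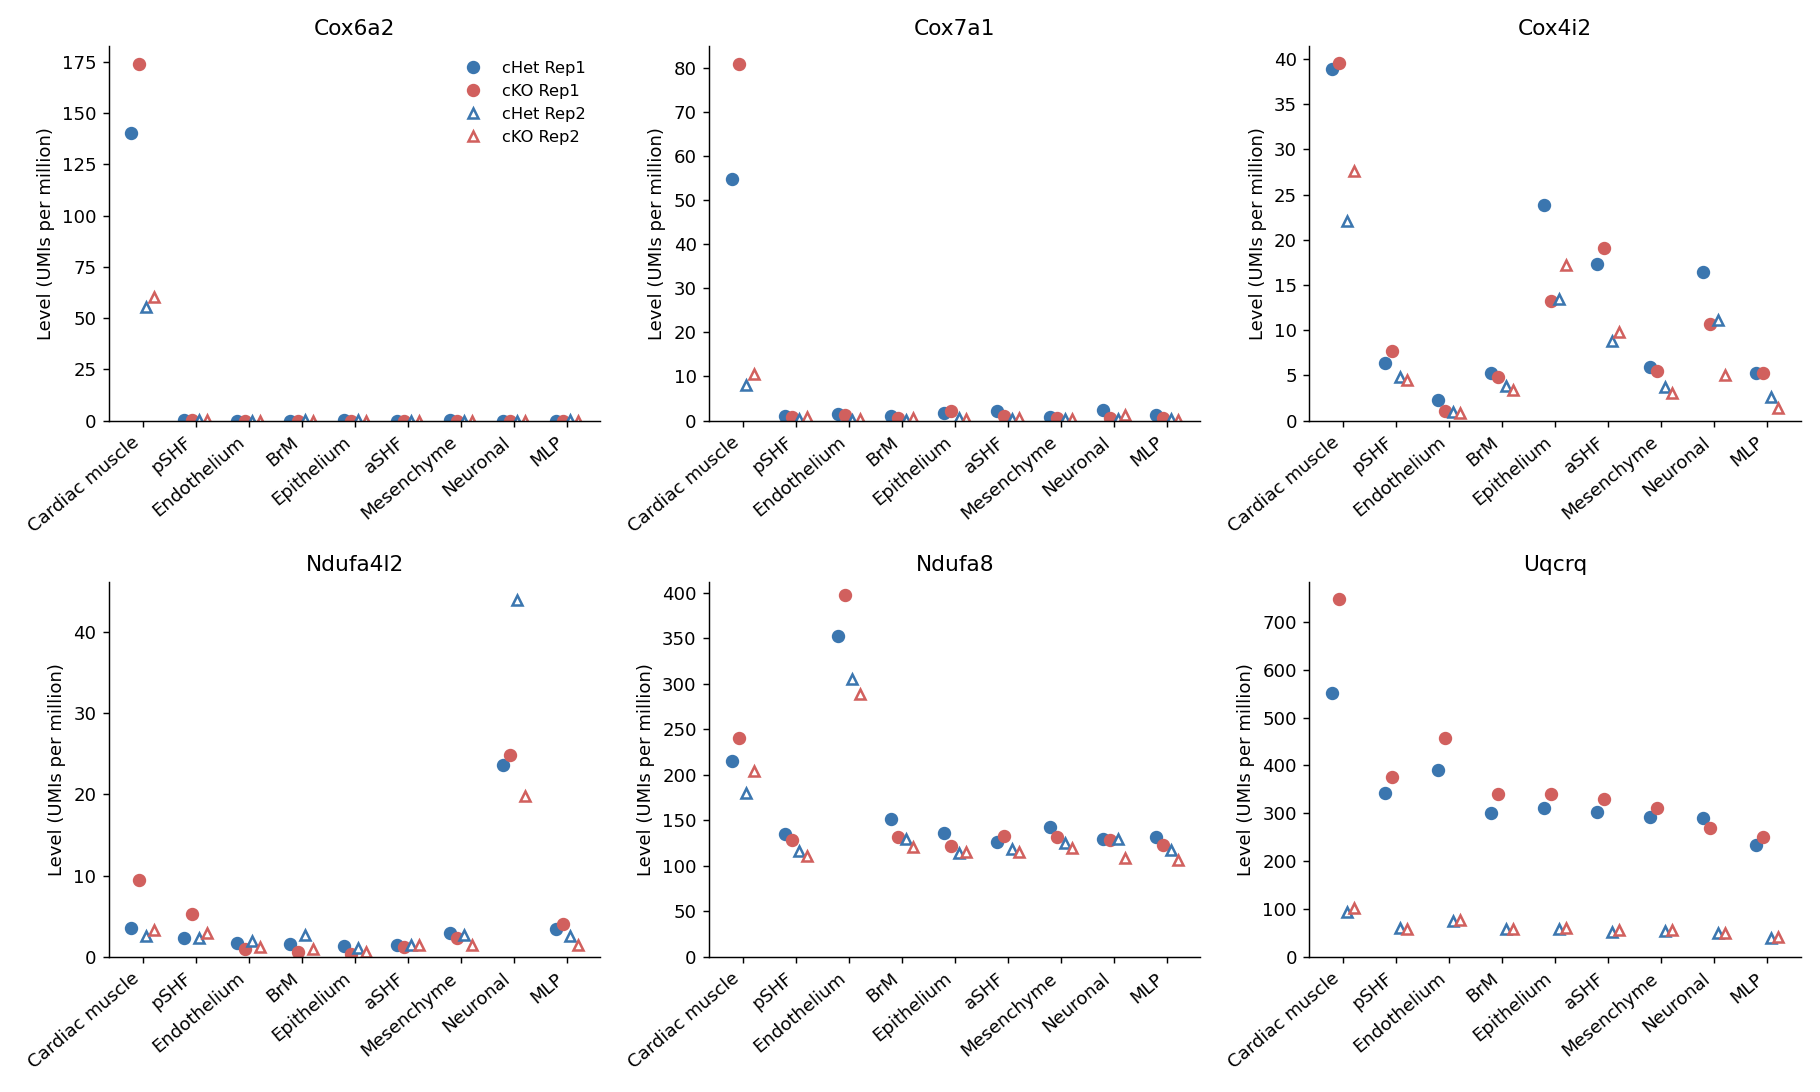
Level in CPM of Cox6a2, Cox7a1, Cox4i2, Ndufa4l2, Ndufa8 and Uqcrq in each cell type, with 1 point per library. Cox6a2 and Cox7a1 stand high in cardiac muscle, Cox4i2 in cardiac muscle and epithelium, Ndufa4l2 in neuronal cells and Ndufa8 in endothelium.

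The subunit c genes Atp5g1, Atp5g2 and Atp5g3 encode the same mature protein of the rotor ring of ATP synthase, and they did not behave alike between types. Atp5g2 varied least of all members between types, with a ratio of highest to lowest type mean of 1.18. Atp5g1 was at 854.8, 1104, 262.4 and 243.1 CPM in cardiac muscle and at 527.7, 550.2, 148.9 and 118.1 CPM in mesenchyme. Atp5g3 was at 657.0, 822.9, 655.7 and 782.2 CPM against 442.2, 419.7, 351.2 and 377.8 CPM. Thus Atp5g1 and Atp5g3 were higher in cardiac muscle in each library. After Atp5g2, the members that varied least were Ndufa10 (1.24), Uqcrc1 (1.28), mt-Co1 (1.30) and Ndufa2 (1.32). The median over the members of this ratio was 1.62, and for 87 members it was under 2. Its largest values belonged to Cox7a1 (74.0), Ndufa4l2 (31.7), Cox4i2 (24.9), Cox7b2 (17.3) and Ndufa8 (2.81), while Cox6a2 was listed at 0 in some types and has no ratio. Cox7b2, a testis-enriched form of Cox7b, rested on 38 to 99 UMIs per library.

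Ndufa8 and Ndufa4l2 were the tested members whose highest mean lay outside cardiac muscle by the widest margin over the next type. Ndufa8, an accessory subunit of complex I (chr2:36036326-36049406, minus strand), was counted in endothelium at 352.7, 396.9, 304.8 and 288.9 CPM. Cardiac muscle followed at 214.8, 240.8, 179.9 and 204.3 CPM, and mesenchyme was at 142.8, 131.5, 125.1 and 119.8 CPM, with no overlap between these 3 types. The only other members at least 25% higher in endothelium than in all other cells in each library were Ndufs5 and Uqcrq, against 13.3% of all genes. Ndufa4l2, a paralog of the complex IV subunit Ndufa4 that is known as a hypoxia-induced gene, was highest in neuronal cells at 23.6, 24.8, 44.0 and 19.8 CPM (chr10:127514967-127517154, plus strand). It was seen with a UMI in 25.8% and 22.1% of neuronal cells in Rep1 and in 35.5% and 20.6% in Rep2. In mesenchyme it was at 2.99, 2.34, 2.74 and 1.51 CPM. Ndufa4l2 overlaps Shmt2 on the opposite strand. In barcodes with under 1000 UMIs, Ndufa4l2 was at 3.36, 4.79, 0.903 and 2.22 CPM, from only 16, 2, 1 and 3 UMIs. Its level in mesenchyme lay below these values except in cHet Rep2, where it lay above (2.74 against 0.903 CPM). Outside cHet Rep1 these barcodes were among those that the paper counted as cells, so they cannot be taken as free RNA.

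The mitochondrial members differed over a wide range in these counts from the 3′ end, and most were lower in Rep2. The counts were not taken as levels of separate transcripts. Over all cells, mt-Atp6 (subunit a of ATP synthase) was counted at 4475 and 4234 CPM in the cHet and cKO libraries of Rep1 and at 2005 and 2231 CPM in Rep2. Of the complex IV subunits, mt-Co2 was at 4063, 3673, 1562 and 1845 CPM, mt-Co3 at 2828, 2639, 1515 and 1661 CPM and mt-Co1 at 2048, 1951, 1679 and 1622 CPM. Cytochrome b of complex III, mt-Cytb, was at 2422, 2260, 1387 and 1613 CPM. All of these were higher in both Rep1 libraries than in either Rep2 library. Among the complex I subunits, mt-Nd4 was at 1996, 1888, 1146 and 1268 CPM, mt-Nd2 at 1206, 1132, 592.2 and 659.6 CPM and mt-Nd5 at 410.9, 393.6, 385.9 and 386.2 CPM. The short subunits mt-Nd4l and mt-Nd3 were at 278.6, 285.2, 101.9 and 121.0 CPM and at 159.3, 158.9, 49.2 and 57.7 CPM. The genes that went the other way were mt-Nd1, at 1513, 1389, 2181 and 2295 CPM, and mt-Atp8, a small subunit of ATP synthase, at 32.3, 34.1, 41.7 and 42.8 CPM. mt-Nd6, the only protein encoded on the light strand, was at 75.3, 60.9, 20.7 and 25.8 CPM and was the mitochondrial member whose highest type was aSHF rather than cardiac muscle. In cardiac muscle, mt-Cytb showed the largest complex-level excess of the mitochondrial genome, at 1.42 ± 0.168 times mesenchyme (SD, n = 4), and the complex IV subunits were at 1.15 ± 0.117 times mesenchyme. In barcodes with under 1000 UMIs the mitochondrial share of UMIs was 3.99%, 2.91%, 8.47% and 9.14%, above the medians in kept cells of 2.11%, 1.98%, 1.26% and 1.37%.

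The gap between the replicates exceeded the differences between most cell types. Over all cells, the nuclear sum was 26273 and 26011 CPM in Rep1 against 11627 and 11985 CPM in Rep2, and the mitochondrial sum was 21506 and 20098 CPM against 12666 and 13828 CPM. The median log2 ratio of Rep2 over Rep1 was -1.11 in cHet and -1.0 in cKO for nuclear members, while for all genes tested it was 0.29 and 0.32. Of the 92 nuclear members, 79 (cHet) and 81 (cKO) were lower in Rep2. The gap differed between complexes: the median in cHet was -1.86 for complex III, -1.52 for complex V and 0.33 for complex II. It was 0.56 for the enzymes of the TCA cycle and -1.65 for the cytosolic ribosomal proteins. At the ends stood Uqcr10 of complex III (-2.84) and Atp5k of complex V (-2.83), against Sdhc of complex II (1.15) and Uqcrc2 of complex III (0.74). The gap was wider for members with short transcripts, with a median of -1.96 in the shortest 31 nuclear members, -0.95 in the middle 30 and -0.44 in the longest 31. All genes of the same length bounds had medians of -0.49, 0.02 and 0.38. Length did not order the members closely, with a Spearman correlation over the nuclear members of 0.37 in cHet and 0.31 in cKO. Complex V, with a median of 2181 exonic bases, had a wider gap in cHet than complex IV, with 1101.5 (-1.52 against -1.26). The kit, the pool of embryos and the version of the counting software changed together between the replicates, so their parts cannot be told apart. For this reason the genotypes were compared with the replicate as a block, and many values are also given within each replicate. Log2 ratios between genotypes with no replicate named are over both, and the replicates can differ.

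**Figure D3:**
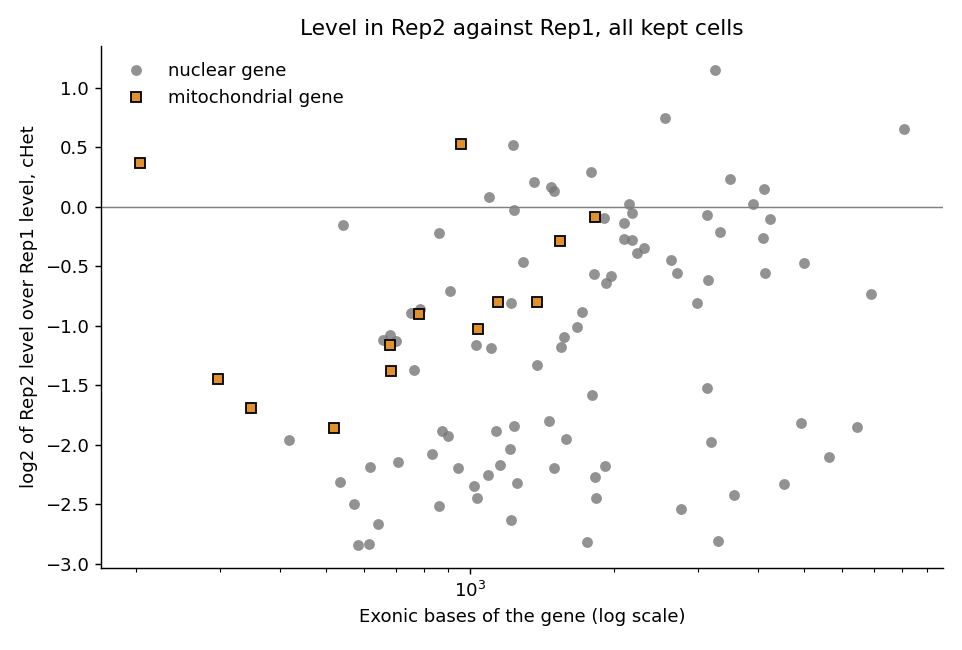
Log2 ratio of Rep2 over Rep1 in cHet cells (y axis) of each tested member against its summed exonic length in bases (x axis, log scale). Most points lie under 0, and those of shorter transcripts tend to lie lower (Spearman correlation 0.37 over the nuclear members), with Uqcr10 at -2.84.

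Between genotypes, 1 member passed the test in 1 cell type. Ndufa4l2 fell in cKO BrM cells, by 1.37 on the log2 scale (SE 0.36, edgeR quasi-likelihood test, Benjamini-Hochberg adjusted p = 0.0375, n = 2 libraries per genotype), against 1.67% of all genes called there (245 of 14701). In BrM 16 members had an unadjusted p under 0.05, against 8.53% of all genes. The counts behind it were small, with 19 UMIs in cHet and 8 in cKO of Rep1, and 69 and 25 in Rep2. As levels these were 1.55 and 0.652 CPM in Rep1 and 2.72 and 0.974 CPM in Rep2, lower in cKO in both replicates. The log2 ratios on the scale of the fit (TMM, with a prior count of 2 that pulls low counts towards 0) were -1.10 and -1.36. A UMI of it was seen in 3.93% of cHet and 1.67% of cKO cells of Rep1, then in 5.78% and 1.66% of those of Rep2. In barcodes with under 1000 UMIs, where it rested on 16, 2, 1 and 3 UMIs, Ndufa4l2 was at 3.36, 4.79, 0.903 and 2.22 CPM. Both BrM levels of Rep1 lay under these, while in Rep2 the cHet level lay above and the cKO level below. Free RNA itself was not measured. In the same BrM cells the summed neural crest markers were at 19.0, 8.23, 5.82 and 5.46 CPM and the summed erythroid markers at 12.4, 29.3, 2.20 and 7.56 CPM, and their part in the result was not tested. The call was lost under 7 of 9 alternatives, among them DESeq2's size factors (adjusted p = 0.106 in edgeR), and with any library left out. The test of the difference between BrM and mesenchyme in the response to genotype called no member, against 0% of all genes, and 0 of 105 members had an unadjusted p under 0.05 (3.9% of all genes).

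In mesenchyme no member passed, against 1.63% of all genes, and 16 members had an unadjusted p under 0.05, against 10.7% of all genes. The smallest p belonged to Ndufa4l2 (log2 ratio -0.60, SE 0.16, adjusted p = 0.0986), with log2 ratios of -0.35 in Rep1 and -0.83 in Rep2. Cox7b2 followed (1.01, adjusted p = 0.114), with 22 UMIs in cHet and 77 in cKO of Rep1, then 28 and 54 in Rep2. Without a filter on low counts, 11 of 107 members passed in mesenchyme, among them both of these, and 2.58% of all genes did (651 of 25239). Ndufa1, Ndufa3 and Ndufc1, small accessory subunits of complex I, came next, with log2 ratios of 0.19, 0.17 and 0.17 that were higher in Rep2 than in Rep1 (0.31, 0.27 and 0.29 against 0.08, 0.09 and 0.05). In pSHF no member passed, against 0.588% of all genes, and 5 had an unadjusted p under 0.05 (5.6% of all genes). They were Ndufa3 (log2 ratio 0.30), Atp5c1 (-0.16), Atp5g1 (-0.18), mt-Nd4l (0.17) and Atp5h (-0.15), of which Atp5g1 changed sign between the replicates (0.02 and -0.40).

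Between genotypes, the summed mitochondrial levels lay in opposite directions in the replicates. In mesenchyme the mitochondrial sum was lower in cKO in Rep1 (20559 against 22461 CPM, log2 ratio -0.13) and higher in Rep2 (14216 against 12989 CPM, 0.13). The log2 ratios were -0.08 and 0.14 in pSHF, -0.11 and 0.16 in BrM and -0.07 and 0.23 in cardiac muscle. This pattern, below 0 in Rep1 and above 0 in Rep2, was present in the sums of all 9 types. Within epithelium it was not present in both clusters: in Rep1 the mitochondrial sum of cluster 9 was higher in cKO (20340 against 19650 CPM) and that of cluster 15 lower (15752 against 17709 CPM). Cluster 9 held 330 cells in cHet and 169 in cKO of Rep1, and cluster 15, the lower of the pair in mitochondrial level, held 173 and 250. In the unnamed cluster 20 the mitochondrial sum was lower in cKO in both replicates (16350 against 17847 CPM and 12794 against 12948 CPM). The nuclear log2 ratios were 0.20 and 0.15 in cardiac muscle. In the other 8 types they lay between -0.04 and 0.05, with 0.04 and 0.04 in BrM, -0.002 and 0.04 in mesenchyme and -0.005 and 0.03 in pSHF. With 2 libraries against 2, an exact permutation test (two-sided) cannot go below p = 0.33, and the sums were not tested. In the same libraries the median UMIs per kept cell were higher in cKO in Rep1 (22972 against 19293) and lower in cKO in Rep2 (17240.5 against 21413), and the part of depth in this pattern was not tested.

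**Figure D4:**
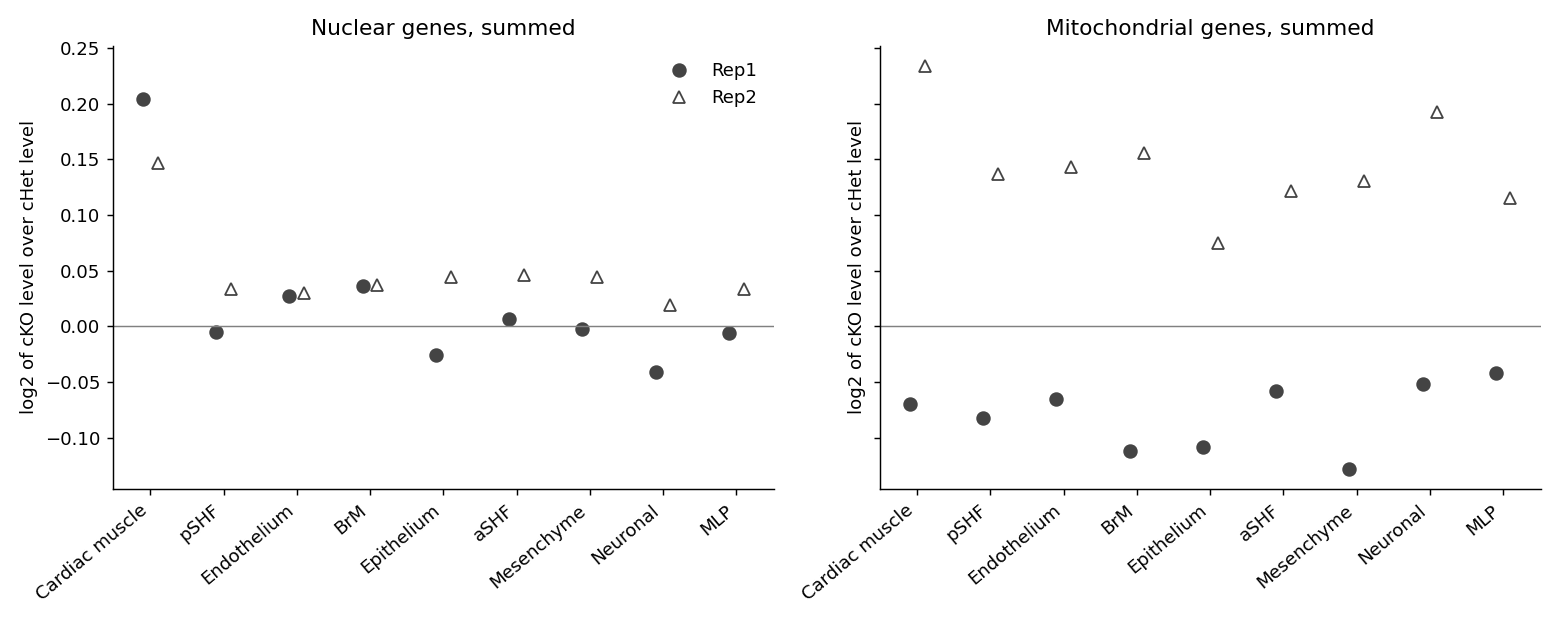
Log2 ratio of cKO over cHet of the summed nuclear and summed mitochondrial members in each cell type, with Rep1 and Rep2 as separate points. The mitochondrial points of Rep1 lie below 0 and those of Rep2 above 0 in all 9 types, and cardiac muscle has the highest nuclear ratios (0.20 and 0.15).

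Cardiac muscle was the type in which the nuclear members lay farthest from 0 between genotypes, although none passed the test. The nuclear sum was 41079 CPM in cKO against 35650 CPM in cHet of Rep1 (log2 ratio 0.20) and 18693 against 16886 CPM in Rep2 (0.15). Of 91 nuclear members tested, 89 had a log2 ratio above 0, where 49.9% of all genes did, with a median of 0.23 (0.25 in Rep1 and 0.19 in Rep2). In both replicates 82 of the 91 lay above 0, against 25.9% of all genes. More nuclear members lay above 0 than below it in 7 of the other types as well, at medians of at most 0.07. The counts were 77 of 90 in BrM (54.1% of all genes), 64 of 91 in mesenchyme (50.6%), 62 of 89 in MLP (51.6%), 62 of 90 in endothelium (48.8%) and 59 of 90 in aSHF (50.2%). They were 55 of 90 in epithelium (50.3%), 53 of 89 in pSHF (48.9%) and 39 of 89 in neuronal cells (49.1%). These counts are over both replicates. Over the other settings, each replicate alone among them, the nuclear median reached -0.03 in epithelium, -0.02 in aSHF and -0.04 in pSHF. It stayed above 0 in BrM, mesenchyme, MLP and endothelium. Within epithelium the Rep1 medians of complexes I, IV and V were -0.02, -0.03 and -0.06. The medians of the complexes in cardiac muscle were alike, at 0.21 for complex I, 0.26 for complex II, 0.29 for complex III, 0.25 for complex IV and 0.22 for complex V. The 13 mitochondrial members had a median of 0.15, with -0.01 in Rep1 and 0.29 in Rep2, and so were not higher in both. No member passed the edgeR test at an adjusted p under 0.05, against 0% of all genes, and 28 of 104 had an unadjusted p under 0.05, against 3.58% of all genes. DESeq2 also called 0 members in cardiac muscle. Over the 9 alternatives that keep all libraries, DESeq2 among them, the number of all genes called there ran from 0 to 35.

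The smallest p-values in cardiac muscle belonged to genes of 4 complexes. Atp5md, a small subunit of complex V, was at 509.8 CPM in cHet against 639.5 CPM in cKO of Rep1, then at 89.0 against 117.0 CPM in Rep2 (log2 ratio 0.41, SE 0.11, adjusted p = 1.00 by edgeR). Ndufa5, an accessory subunit of complex I, was at 297.9 and 399.7 CPM in Rep1, with 52.8 and 65.0 CPM in Rep2 (log2 ratio 0.41). Sdhd, a membrane anchor of complex II, was at 134.8 and 165.5 CPM in Rep1, with 190.8 and 249.8 CPM in Rep2 (0.40). All 3 were higher in cKO within each replicate. Cox8a of complex IV had a log2 ratio of 0.35 and Ndufb1-ps of complex I one of 0.40. The heart isoforms Cox6a2 and Cox7a1 had log2 ratios of 0.26 (SE 0.13) and 0.54 (SE 0.18), also above 0 in both replicates.

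The difference between cardiac muscle and mesenchyme in the response to genotype had an unadjusted p under 0.05 in 54 of 105 members, against 6.88% of all genes, and called 0 members at an adjusted p under 0.05, against 0.0312% of all genes. The members with the smallest p were Ndufs7 of complex I (difference of log2 ratios 0.34), Atp5g1 (0.29), Atp5o of complex V (0.27) and Cox8a (0.27), each with an adjusted p of 0.213 in edgeR. The median difference was 0.18 over the nuclear members and 0.09 over the mitochondrial members. In pSHF the same test called 0 members (0.0375% of all genes), and 1 of 105 had such a p (4.48% of all genes). That member was Ndufa4l2, whose difference from mesenchyme was 1.35 in pSHF (adjusted p = 0.633 by edgeR) and 1.48 in cardiac muscle (adjusted p = 0.507). Its log2 ratio in pSHF was 0.71 (1.12 in Rep1 and 0.34 in Rep2, adjusted p = 0.934 by edgeR), from 14, 21, 25 and 31 UMIs. In cardiac muscle it was 0.86 (1.35 and 0.33), from 10, 10, 14 and 16 UMIs. In the other 7 types its log2 ratio was below 0, from -1.37 in BrM to -0.14 in aSHF.

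Several values stood beside the cardiac muscle pattern. The type held 147 cells in cHet and 40 in cKO of Rep1, then 226 and 254 in Rep2, so that cKO Rep1 was the thinnest sample, with 2.50%, 0.636%, 2.42% and 2.13% of the cells of its library. The 7 cardiac markers summed to 22991 and 28747 CPM in Rep1 (log2 ratio 0.32) and to 36864 and 37943 CPM in Rep2 (0.04). The aSHF markers in these cells had log2 ratios of -0.47 in Rep1 and 0.10 in Rep2, and the endothelial markers -1.03 and -0.05. The pSHF markers were at 0.11 and 0.16 and the erythroid markers at 0.34 and 1.32, above 0 in both replicates as the nuclear sum was. The erythroid sum rested on 7.43, 9.40, 2.35 and 5.89 CPM. The neural crest markers were lower in cKO in both replicates, at 19.5, 8.46, 7.23 and 5.69 CPM (55, 9, 40 and 28 UMIs). Somite ranges given by the paper placed the cKO pool of Rep2 at or past the oldest cHet embryos of that replicate. In Rep1 the cKO range lay inside the cHet range. The part of the markers, of the cell numbers and of stage in the result was not tested. With each cell thinned to 5000 UMIs the nuclear median was 0.17.

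**Figure D5:**
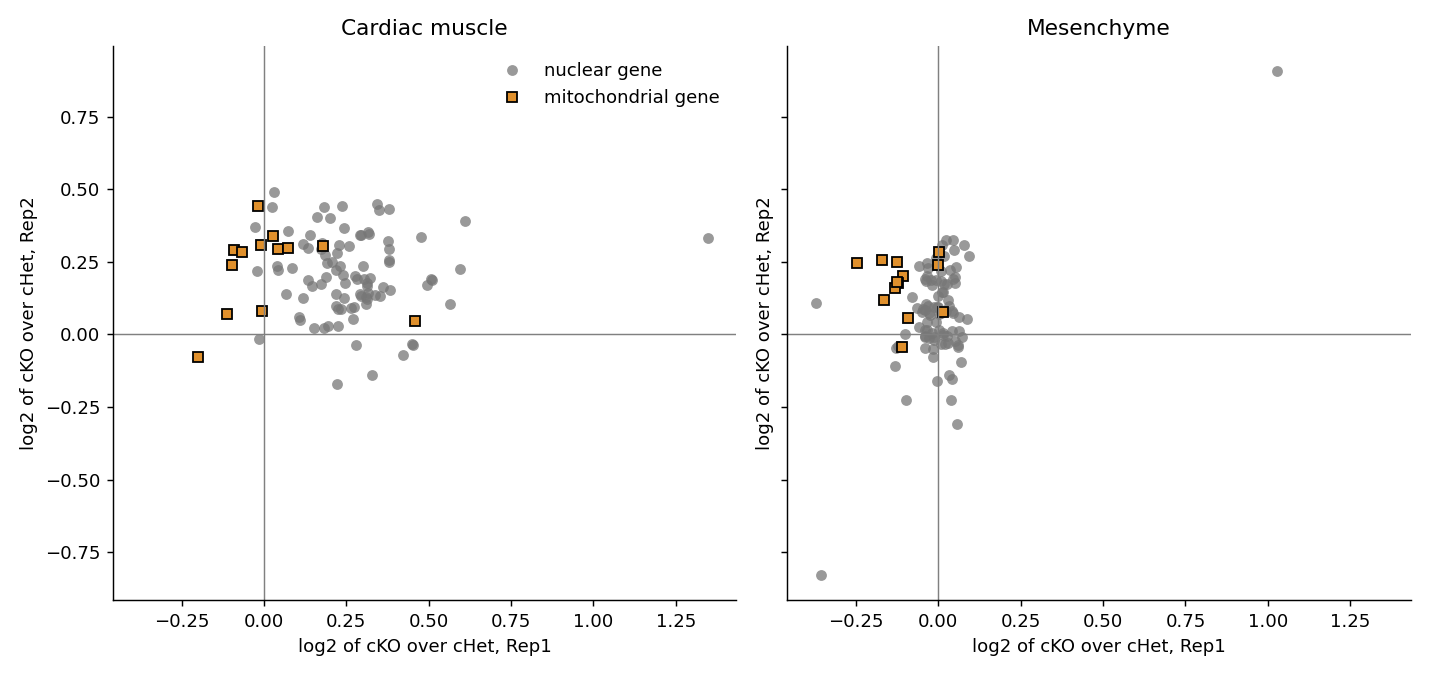
Log2 ratio of cKO over cHet of each tested member in Rep1 (x axis) against Rep2 (y axis), in cardiac muscle (left) and mesenchyme (right). In cardiac muscle 82 of 91 nuclear members lie above 0 on both axes, and in mesenchyme the points gather near 0.

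In the 5 other types no member passed either. The share of all genes called was 0% in epithelium, 0.133% in neuronal cells, 0.0618% in endothelium, 0.747% in MLP and 0% in aSHF. Members with an unadjusted p under 0.05 numbered 2, 2, 6, 10 and 0 in these types, against 4.26%, 5.37%, 4.93%, 6.44% and 4.4% of all genes. In neuronal cells, Cox4i2 had the smallest p (log2 ratio -0.83, with -0.59 in Rep1 and -1.04 in Rep2), and Ndufa4l2, at its highest level there, was at -0.58 (0.07 and -1.12), so the replicates of Ndufa4l2 differed in sign. Cox6a1 (0.20), Ndufa11 (-0.16) and Ndufa1 (0.22) followed. In epithelium the list was Cox7c (0.19), Ndufa4l2 (-1.16), Ndufaf7 (-0.26), Atp5c1 (-0.14) and Atp5k (0.23). In endothelium it was Ndufa3 (0.25), mt-Nd4l (0.21), Ndufa5 (0.18), Atp5k (0.19) and Cox6a1 (0.17). MLP had mt-Nd4l (0.18), Ndufa5 (0.20), Uqcrb of complex III (0.16), Ndufb4 (0.18) and Cox7c (0.14), and aSHF had Uqcrq (0.13), Ndufc1 (0.14), Ndufa3 (0.17), Ndufaf4 (-0.12) and Ndufaf1 (-0.20). Over all 9 types the log2 ratio of mt-Nd4l ran from -0.07 to 0.11 in Rep1, below 0 in epithelium and neuronal cells, and from 0.12 to 0.40 in Rep2. Over all cells together, 0 of 105 members passed (0% of all genes), and 15 had an unadjusted p under 0.05 (5.66% of all genes).

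Genes that work beside the members were counted from lists of their own. The TCA cycle enzymes, which supply NADH and succinate, were 1.48 ± 0.111 times mesenchyme in cardiac muscle (SD, n = 4). The glycolysis list, which matched 18 entries of the count tables, was 1.72 ± 0.115 times mesenchyme there. Glycolysis was also 1.36 ± 0.0462 times mesenchyme in pSHF and 1.02 ± 0.0210 times in BrM. The genes of mitochondrial DNA expression (Tfam, Polrmt and others) were at 0.855 ± 0.0726 times mesenchyme in cardiac muscle, on the other side of 1 from the mitochondrial members. The mitochondrial ribosome was at 1.07 ± 0.0660 times and the cytosolic ribosome at 0.801 ± 0.0106 times. Between genotypes, no gene of the TCA cycle, glycolysis, mitochondrial ribosome, mitochondrial DNA expression, regulator or assembly lists passed in any type. Among 85 cytosolic ribosomal protein genes, 5 rose in cKO MLP (Rpl38, Rps28, Rpl39, Rps27 and Rpl37a, log2 ratios of 0.23 to 0.27), Rpl29 rose in pSHF (0.38) and Rpl38 rose in BrM (0.31). These were 5, 1 and 1 of 82 genes tested in each of these types, beside the 0.747%, 0.588% and 1.67% of all genes called there, so the single calls in pSHF and BrM lay near the background. In cardiac muscle most genes of these lists too lay above 0 between genotypes: 13 of 13 TCA cycle genes (median 0.16), 16 of 17 glycolysis genes (0.19), 62 of 78 genes of the mitochondrial ribosome (0.10) and 81 of 82 of the cytosolic ribosome (0.11). The cytosolic ribosome had 77 of 82 genes above 0 in MLP and in BrM too. In cardiac muscle the counts were 27 of 41 for assembly factors and carriers (0.13), 6 of 9 for regulators (0.11) and 10 of 15 for mitochondrial DNA expression (0.06, with -0.08 in Rep1). The nuclear oxidative phosphorylation median of 0.23 stood above each of these over both replicates, but not within each of them. In Rep1 the TCA cycle and glycolysis medians were 0.33 and 0.34, against 0.25 for the nuclear members, and in Rep2 they were 0.07 and 0.06, against 0.19.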

How the data were processed

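The authors deposited unnormalized UMI counts per gene and barcode for 4 libraries, made with Cell Ranger (7.0.1 in the headers of Rep1 and 8.0.1 in those of Rep2, 8.0.1 and mm10 in the submitters' processing notes). The SoupX correction and integration that the methods describe came after these files. Barcodes with at least 3000 genes, at most 10% mitochondrial and at most 5% haemoglobin UMIs were kept, less those with the highest Scrublet scores. The scores were cut at the share expected for the kit (3.90 to 5.33%), and ties at the cut took the share removed to 4.03 to 5.78%. This cut was used because Scrublet's own threshold (run in scanpy 1.11.5) called only 0.0150 to 1.74%. Principal components were shifted to align the replicates (a Harmony-like soft clustering), and cells were clustered by Leiden (leidenalg 0.10.2, resolution 0.8) without the members and mt- genes. A cluster was named where at least 3 markers of a type were at least 2-fold higher than elsewhere and in at least 10% of its cells. For mesenchyme, elsewhere meant the clusters already named for another type. Names were withdrawn where a neural crest, erythroid or macrophage marker was among the 10 leading genes. Cluster 20 passed for mesenchyme (Twist1, Col3a1 and Snai1) but stayed unnamed because Tfap2b, a neural crest marker, was among its leading genes. A tie went to the type with more markers among the 10 leading genes of the cluster, which decided aSHF over pSHF.

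Counts were summed per library and type and tested with edgeR 4.0.16 (quasi-likelihood, TMM, filterByExpr, all genes, Benjamini-Hochberg, called at an adjusted p under 0.05) with the replicate as a block, and DESeq2 1.42.0 was an alternative, both in R 4.3.3. The sums tested held between 1058510 and 105284000 UMIs, so calls in cardiac muscle are the least precise. The replicate number marks a shared kit, and libraries of the same replicate deviated together, with correlations of 0.634 (cardiac muscle) to 0.844 (mesenchyme). With 2 libraries per genotype and the replicate as a block, p-values rest on how far the genotype difference disagreed between the replicates, mostly over many genes together. In BrM, Cox5b (log2 ratios 0.20 and 0.19) had an SE of 0.073, and mt-Co2 (-0.10 and 0.31) had one of 0.079. A small p therefore does not mean that the replicates were alike for that gene. The libraries are separate pools of embryos, so the disagreement between replicates holds pool, kit and depth together. The spread between pools of the same kit and genotype was not observed. Log2 ratios of a gene within a replicate are differences of TMM-scaled log2 CPM with a prior count of 2, and those of summed levels are ratios of CPM. The scripts were tested on simulated counts. CPM here are UMIs of a gene per 1000000 UMIs of the same cells. A UMI stands for 1 transcript end, so isoform shares were taken without division by length. Genes with near-identical copies, which include several members with pseudogenes, are uncertain where reads could not be placed. Positions came from GENCODE M21 (GRCm38), in which all 107 members were found.

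Genes were named by rule: the mitochondrial members, members called between genotypes, tissue and paralogous isoforms, core subunits, the 5 most and the 5 least variable members between types, and the 5 smallest p-values of each type without a call. The members and lists were chosen with earlier results of these data known. Values of 1 core subunit are not reported here. Sequences of proteins were not used here.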

Additional observations from a re-analysis of the deposited data

How the results depend on the processing

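The fall of Ndufa4l2 in BrM was the only call among the members, and the number of members called there went from 1 to 0 without the replicate block, with DESeq2, with DESeq2's size factors in edgeR, with scaling without mt- genes, with at least 4000 genes per cell, with cells thinned to 5000 UMIs (where the gene was not tested) and at a resolution of 1.2. It also lay between 0 and 0 with each library left out in turn. The adjusted p ran from 0.0104 (no filter on low counts) to 1.00. It stayed at 1 without a mitochondrial maximum and with no filter. Among all genes, the numbers called were 245 in BrM (0 to 366 over the alternatives), 292 in mesenchyme (0 to 651), 105 in MLP (0 to 106) and 77 in pSHF (0 to 119). In mesenchyme, 11 of 107 members were called with no filter on low counts, where 2.58% of all genes were. Without the replicate block no gene at all was called in any type, and the block changed no other call among the members. The median log2 ratio of the nuclear members in cardiac muscle was 0.17 after thinning, and over all cells it was 0.047, against 0.0081 after thinning and 0.068 in replicate 2 alone. Leaving out a library removes the block, so a kit then stands against a genotype: the nuclear median ran from -0.54 to 1.07 in cardiac muscle and from -0.84 to 0.92 over all cells, and the mitochondrial median from -0.58 to 0.96 and from -0.57 to 0.73. For these changes the cause was not tested beyond that construction. Of 366 values of named genes under the alternatives that keep all libraries, 365 kept their sign. In replicate 1 alone, Atp5g1 in pSHF (0.02) and Ndufa4l2 in neuronal cells (0.07) had the other sign than over both. Of 56 ratios to mesenchyme outside cardiac muscle, 55 moved by less than the SD over libraries. The one that moved was the nuclear ratio of MLP (0.970, with up to 0.993 over the alternatives). Depth limits the isoforms most, since Cox7b2, Cox8b and Cox8c rest on few UMIs.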
